A study of Homo sapiens with 6 samples.

Results

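The histone genes of the count table were described in PANC-1 cells, a long-established human pancreatic carcinoma cell line, between libraries labelled with and without fibroblast vesicles. Members were taken by gene name and not by their values, though the gene set was chosen with earlier results of these data known. Taken were linker histone genes (H1 followed by a number) and genes of the H2A, H2B, H3 and H4 clusters. H2AX, all names that begin with H2AZ, the macroH2A genes, and the H3.3 genes H3-3A and H3-3B were also taken. Members numbered 74 of 32453 features in the table, of which 32078 carried a gene name. Of the 74, 57 were clustered genes, 46 on chromosome 6 and 11 on chromosome 1, 9 were variant genes outside the clusters, and 8 were H2AZ pseudogenes or the divergent transcript of H2AZ1.

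The EV-labelled group held 3 libraries with CAF-derived Evs as their treatment label, that is, extracellular vesicles (EVs) shed by cancer-associated fibroblasts (CAFs), and the control-labelled group held 3 libraries whose treatment label was none. All 6 came from the same cell line. The sources used here do not give EV dose or time. The protocol text describes EV treatment for every library, the controls included, so the groups rest on titles and treatment labels. RNA was captured on oligo(dT) beads before sequencing, which selects RNA with a poly(A) tail. Nothing states that libraries came from separate cultures, so the spread behind the p-values may be a technical one.

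Nucleosomes wrap DNA around H2A, H2B, H3 and H4, and linker histone H1 binds where DNA enters and leaves. The clustered genes supply most histone protein in S phase, have no introns, and make mRNAs that end in a stem-loop bound by SLBP in place of a poly(A) tail, so oligo(dT) beads take few of them. Variant genes lie outside the clusters, are transcribed into polyadenylated mRNA in and out of S phase, and encode proteins placed at chosen sites: H2A.X marks broken DNA once phosphorylated, H2A.Z and H3.3 sit at promoters and enhancers, and macroH2A sits in silent chromatin. Some clustered genes can also yield polyadenylated mRNA by reading past the stem-loop to a poly(A) signal, which is known for replication-independent expression in differentiated cells.

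The named genes of a library summed to between 21647493 and 27498709 counts. A count of 0 allows up to 3 counts, or 0.11 to 0.138 CPM (read counts made comparable between libraries with TMM factors), and such floors and the binomial intervals given here cover counting error only, since PCR reads without molecular identifiers are not independent molecules. Of the listed epithelial keratins, KRT8, KRT18 and KRT19 were abundant and KRT7 was not. KRT8 averaged 3380 ± 181 CPM in EV-labelled and 3060 ± 196 CPM in control-labelled libraries (SD, n = 3 each). KRT7, untested, had 1, 2 and 3 counts in EV-labelled and 5, 10 and 7 counts in control-labelled libraries. The epithelial genes CDH1 and EPCAM had 0 counts in all 6 libraries. The 6 listed epithelial markers summed to 4812 to 5292 CPM in EV-labelled and 4542 to 5066 CPM in control-labelled libraries, and of the 3 that passed the count filter 1, KRT19, was called lower and 0 higher by the edgeR test described below (1 higher at an unadjusted p under 0.05, 1 by DESeq2 and 1 by limma-voom). Of 10 listed fibroblast markers, DCN, LUM, POSTN and THY1 had 0 counts in every library. COL1A2, a collagen chain of that list, was at 186 ± 9.64 CPM in EV-labelled and 114 ± 12.6 CPM in control-labelled libraries. The list summed to 196.7 to 215.5 CPM in EV-labelled and 114.9 to 141.3 CPM in control-labelled libraries, nearly all of it COL1A2 and COL3A1. COL1A2 was called higher and COL3A1 was not called, where 20.2% of all tested genes were called higher and 20.7% lower. COL1A1, of the same list, had at most 3 counts in a library and was not tested. PDGFRB, untested, went the other way with 0, 0 and 2 counts in EV-labelled and 3, 5 and 13 counts in control-labelled libraries, and PDGFRA had 0 counts in every EV-labelled library and 3, 0 and 3 counts in control-labelled libraries. The part of such cells in the histone values was not tested. In bulk RNA, fewer cells of a type and less RNA per cell cannot be told apart.

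The stem-loop is the element that separates the 2 kinds of histone mRNA end. It was searched as 16 bases that begin with GG, hold 6 paired bases on each side, have TT as the first loop bases and end with CC. It was found on the sense strand of annotated GENCODE v29 transcripts (GRCh38) for 26 of the 57 clustered genes and for 1 of the 9 variant genes, H2AX. Per protein-coding transcript of that annotation, 29 of 68 of the clustered genes held it, 1 of 31 of the variants, and 867 of 83129 (1.04%) of all genes. The clustered genes without a match include 27 whose annotated models consist of coding sequence alone, where no match could be found. Shown are H2AX, the clustered genes H2BC21, H2BC5 and H2BC13, which were called between the groups, and, for comparison, H2AC11, H3C10 and H4C9, which were not called. Each run holds 30 bases of the 3′ UTR, the stem-loop in capitals:
H2AX: acaaaGGCCCTTTTAAGGGCCaccaccgcc
H2BC21: ccaaaGGCTCTTTTCAGAGCCacccaccta
H2BC5: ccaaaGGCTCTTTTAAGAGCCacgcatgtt
H2BC13: ccaaaGGCTCTTTTCAGAGCCactcactat
H2AC11: ccaacGGCTCTTTTCAGGGCCacccacgtc
H3C10: ccaaaGGCTCTTTTCAGAGCCacccacatg
H4C9: aaaaaGGCCCTTTTTAGGGCCcctaagctt

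These runs lie at chr11:119094889-119094918 (minus strand) for H2AX, chr1:149886179-149886208 (minus) for H2BC21, chr6:26158582-26158611 (plus) for H2BC5 and chr6:27807475-27807504 (minus) for H2BC13. Those of H2AC11, H3C10 and H4C9 lie at chr6:27133510-27133539, chr6:27810511-27810540 and chr6:27139649-27139678, all on the plus strand. The form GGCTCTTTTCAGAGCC was shared by 14 genes of the H2A, H2B and H3 families, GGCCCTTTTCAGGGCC by 4 H4 genes, and the form of H2AX was found in no other member. What follows the loop differed more than the loop itself. In H2BC13 the annotated transcript ended 40 bases after it, and in H2BC5 the model that holds it ended 39 bases after it. By contrast, 1729 bases followed it in H2BC21, 1761 in H2AC11, 769 in H3C10 and 212 in H4C9. In H2AX the protein-coding model went on for 1044 bases.

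The variant genes took nearly all histone counts. Summed over the 9 genes, they reached 2100, 2122 and 2038 CPM in EV-labelled libraries, against 1700, 1758 and 1659 CPM in control-labelled libraries. The 57 clustered genes together reached 63.2, 63.85 and 61.96 CPM in EV-labelled libraries, against 67.52, 57.52 and 62.54 CPM in control-labelled libraries. Every EV-labelled library was above every control-labelled one for the variants (log2 ratio of means 0.29), and the groups overlapped for the clustered genes (log2 ratio 0.01). The sums were given no test.

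**Figure D1:**
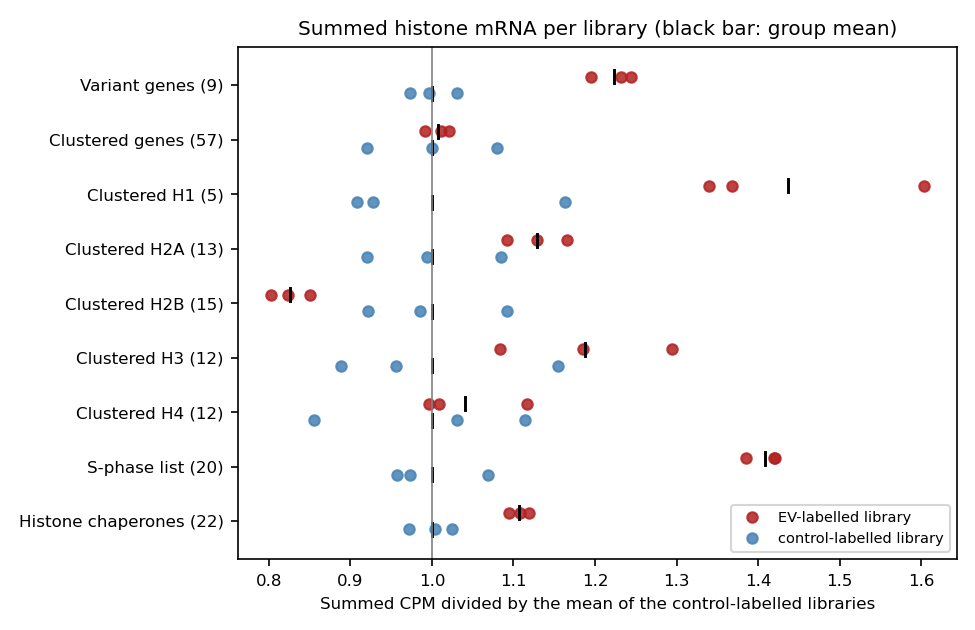
Summed CPM of histone gene classes and of 2 companion lists (rows) divided by the mean of the control-labelled libraries (x axis, no unit), 1 point per library, EV-labelled above control-labelled within a row, black bars at group means. The variant sum of the EV-labelled libraries lies above that of the control-labelled ones, the clustered sums overlap, and clustered H2B runs the other way (25.7 CPM in EV-labelled and 31.1 CPM in control-labelled libraries).

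The share of clustered genes among coding histone counts was 2.92%, 2.92% and 2.95% in EV-labelled libraries, and 3.82%, 3.17% and 3.63% in control-labelled libraries. Exact 95% binomial intervals ran from 2.77% to 3.10% over the EV-labelled and from 3.02% to 4.01% over the control-labelled libraries. Every EV-labelled share was below every control-labelled one, with clustered sums that overlapped and variant sums that were higher in EV-labelled libraries. Of all named counts, clustered genes took 0.00622% to 0.00643% in EV-labelled and 0.00572% to 0.00667% in control-labelled libraries.

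Carry-over of RNA without a poly(A) tail was followed with 17 listed genes, of which 8 were in the table and 4 passed the count filter. Their sum was 8.02, 7.79 and 6.03 CPM in EV-labelled libraries, against 16.4, 7.72 and 5.02 CPM in control-labelled libraries. Control replicate 1 had the highest value both here and for the clustered sum, and its RN7SL1, the RNA of the signal recognition particle, stood at 13.5 CPM against 3.67 to 6.51 CPM in the other 5 libraries. Of the 4 tested genes 0 were called by edgeR, DESeq2 or limma-voom, where edgeR called 40.9% of all tested genes. In edgeR 1 of the 4 had an unadjusted p under 0.05. The lowest edgeR adjusted p were 0.0831 for RN7SL1 and 0.242 for SNORD3A, a small nucleolar RNA. The part of such carry-over in the clustered counts was not tested.

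All 9 variant genes passed the count filter. With edgeR's quasi-likelihood test and Benjamini-Hochberg adjustment over all 14670 tested genes, 6 were called higher and 2 lower in EV-labelled libraries at an adjusted p under 0.05. Over all tested genes 40.9% were called, 20.2% higher and 20.7% lower, so a single call was common in this comparison. The median log2 fold change of the 9 was 0.18, beside -0.01 over all tested genes. Each log2 fold change below sets EV-labelled over control-labelled libraries and carries its SE, and adjusted p-values are from this edgeR fit where no other tool is given.

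H2AX, which encodes the H2A form that is phosphorylated around DNA breaks, had the largest fitted fold change among the variants. It was at 423, 413 and 410 CPM in EV-labelled libraries and at 255, 256 and 246 CPM in control-labelled libraries. The groups were far apart, and the libraries within a group differed little. The log2 fold change was 0.72 ± 0.05 (SE; adjusted p = 8.23e-09), and H2AX made up 42.8% of the difference in the variant sum. As background, H2AX is known to make both an mRNA that ends in a stem-loop and a longer polyadenylated one. Its promoter window held CCAAT and TATAAA, as did those of H2AZ1 and H3-3B. The 250 bases before its RefSeq start (GRCh38.p14, chr11:119095466-119095715, minus strand) are shown with CCAAT on either strand and TATAAA in capitals:
H2AX promoter: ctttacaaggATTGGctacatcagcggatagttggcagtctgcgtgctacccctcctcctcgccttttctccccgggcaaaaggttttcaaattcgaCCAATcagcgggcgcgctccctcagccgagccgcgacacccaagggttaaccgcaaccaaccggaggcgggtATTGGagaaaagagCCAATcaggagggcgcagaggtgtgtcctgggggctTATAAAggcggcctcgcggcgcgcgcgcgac

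The H2A.Z genes encode proteins that differ at a few residues. H2AZ1 was at 248, 278 and 248 CPM in EV-labelled libraries and at 172, 172 and 190 CPM in control-labelled libraries, without overlap (log2 fold change 0.53 ± 0.06, adjusted p = 2.36e-06). H2AZ2 was at 277, 268 and 265 CPM in EV-labelled libraries and at 236, 228 and 227 CPM in control-labelled libraries, again without overlap and with a smaller fold (0.23 ± 0.05, adjusted p = 0.00247). The count ratio of H2AZ1 to H2AZ2 was 0.894, 1.04 and 0.933 in EV-labelled and 0.73, 0.754 and 0.836 in control-labelled libraries. The difference between the folds was given no test of its own. GENCODE v29 lists an antisense gene over H2AZ1, and the sources used here do not say whether reads were counted by strand.

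The H3.3 genes encode the same protein, the replacement form of H3 that is placed outside replication. H3-3A was at 208, 196 and 190 CPM in EV-labelled libraries and at 176, 171 and 178 CPM in control-labelled libraries (0.18 ± 0.06, adjusted p = 0.0188). H3-3B was at 412, 441 and 410 CPM in EV-labelled libraries and at 349, 380 and 392 CPM in control-labelled libraries (0.17 ± 0.06, adjusted p = 0.0273). Neither gene's groups overlapped. These calls are near the threshold: H3-3A had an adjusted p of 0.0837 without EV replicate 1 and 0.0559 without control replicate 2, and H3-3B had 0.137 without EV replicate 2 and 0.13 without control replicate 1. H3-3B overlaps UNK on the opposite strand, and H3-3A overlaps an antisense gene.

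H1-10, which encodes a linker variant (H1.10, also H1x), was at 133, 144 and 129 CPM in EV-labelled libraries and at 105, 114 and 51.0 CPM in control-labelled libraries. Control replicate 3 stood far below the other control-labelled libraries, with 1391 counts beside 2448 and 3113. The log2 fold change was 0.59 ± 0.17 (adjusted p = 0.00855), and without control replicate 3 it was 0.31 (adjusted p = 0.00139). DESeq2 did not call the gene (adjusted p = 0.176). H1-10 overlaps an antisense gene, H1FX-AS1 in GENCODE v29.

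The macroH2A genes encode H2A forms with a large extra domain. MACROH2A1 was at 225, 217 and 212 CPM in EV-labelled libraries and at 222, 212 and 183 CPM in control-labelled libraries, which overlapped, and was the only variant gene not called (log2 fold change 0.09 ± 0.07, 95% interval -0.04 to 0.22, adjusted p = 0.315). MACROH2A2, the least abundant variant, was at 34.8, 30.1 and 32.8 CPM in EV-labelled libraries and at 38.4, 39.2 and 35.9 CPM in control-labelled libraries (-0.21 ± 0.07, adjusted p = 0.0267). Its groups did not overlap, but the call did not hold without EV replicate 2 (adjusted p = 0.148), EV replicate 3 (0.0729), control replicate 1 (0.0666) or control replicate 2 (0.0837). GENCODE v29 places AIFM2 over MACROH2A2 on the opposite strand.

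**Figure D2:**
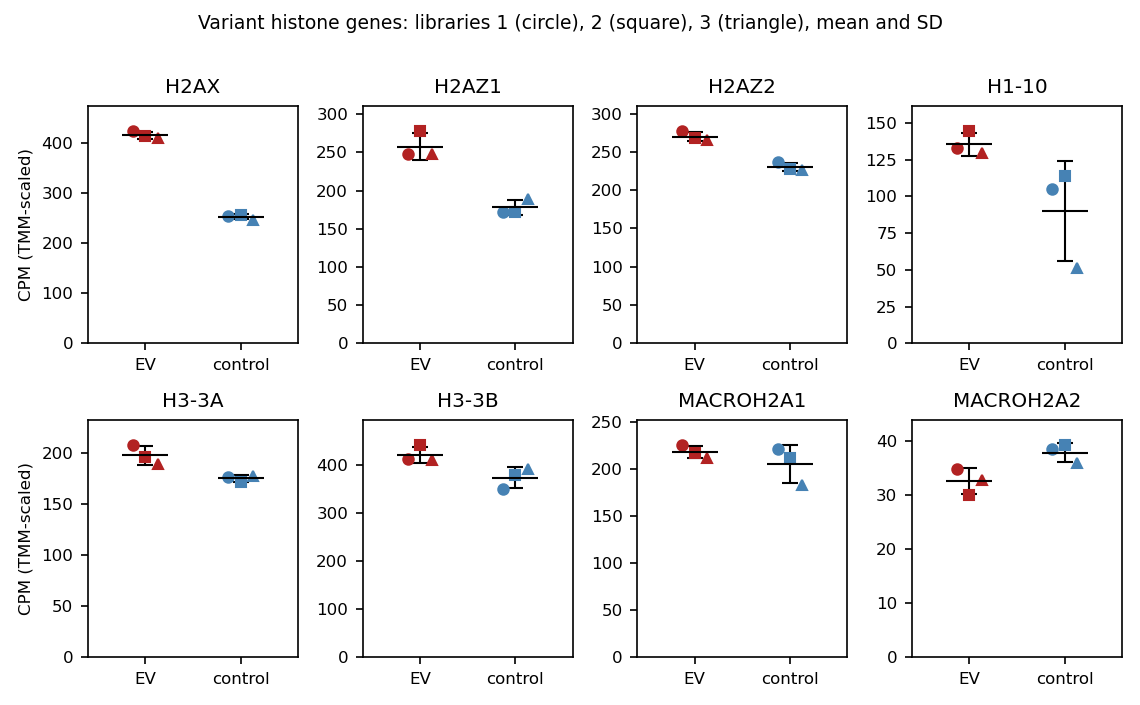
CPM (y axis, scaled with TMM factors, from 0) of 8 of the 9 variant genes in 3 EV-labelled (left) and 3 control-labelled (right) libraries, with group mean and SD, marker shapes giving the replicate number. H2AX lies at 410 to 423 CPM in EV-labelled and 246 to 256 CPM in control-labelled libraries, MACROH2A1 overlaps, and 1 control-labelled library of H1-10 lies at 51.0 CPM.

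Levels can be set side by side per kilobase of the longest annotated coding model (GENCODE v29). On that scale H2AZ1 was at 264 and H2AX at 257 mean CPM per kb in EV-labelled libraries, and at 182 and 156 in control-labelled libraries, in both groups the highest of the variants. This order depends on the model chosen. H2AZ2, at 71.0 in EV-labelled and 60.5 in control-labelled libraries, was divided by 3804 bases. Its other coding models hold 439 to 1041 bases and would give it higher values per kb. H3-3B followed with 156 in EV-labelled and 138 in control-labelled libraries, and MACROH2A2 was lowest with 16.4 in EV-labelled and 19.1 in control-labelled libraries. Among clustered genes H2BC12 was highest, with 39.4 in EV-labelled and 45.1 in control-labelled libraries. Its annotated model holds coding sequence alone, 381 bases, so a longer mRNA would lower its value per kb.

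Of the 57 clustered genes, 33 passed the count filter. The other 24 never exceeded 17 counts in a library, and 3 of them, H2BC10, H3C8 and H3C14, had 0 counts throughout. Of the 33, 6 were called higher and 2 lower in EV-labelled libraries, or 24.2%, against 40.9% of all tested genes. Their median log2 fold change was 0.21, and 12 of 33 had libraries that did not overlap between the groups (7 with EV-labelled above, 5 below), against 50.6% of all tested genes (25.1% above, 25.5% below). Counts were low and errors wide: the median SE was 0.29 on the log2 scale, against 0.06 for the variants and 0.09 for all tested genes, so a smaller share of calls does not show a smaller change. Counts over the genes that passed are a description, since a low gene may pass through the group where it is high.

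The clustered sum hid differences of both signs. Over the 57 genes, 30 had a higher mean in EV-labelled libraries, adding up to 8.38 CPM, and 24 had a lower mean, adding up to -7.9 CPM, a net difference of 0.475 CPM. By family, H1 summed to 8.65, 10.4 and 8.84 CPM in EV-labelled libraries and 5.87, 5.997 and 7.51 CPM in control-labelled libraries, without overlap. H2A averaged 14.6 ± 0.472 CPM in EV-labelled and 12.9 ± 1.07 CPM in control-labelled libraries, also without overlap (SD, n = 3 each). H2B ran the other way without overlap, at 25.6, 25.0 and 26.5 CPM in EV-labelled libraries and 34.0, 28.7 and 30.7 CPM in control-labelled libraries. H3, at 7.45 ± 0.662 CPM in EV-labelled and 6.27 ± 0.867 CPM in control-labelled libraries, overlapped between the groups. H4 overlapped too, at 5.96 ± 0.381 CPM in EV-labelled and 5.73 ± 0.757 CPM in control-labelled libraries.

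**Figure D3:**
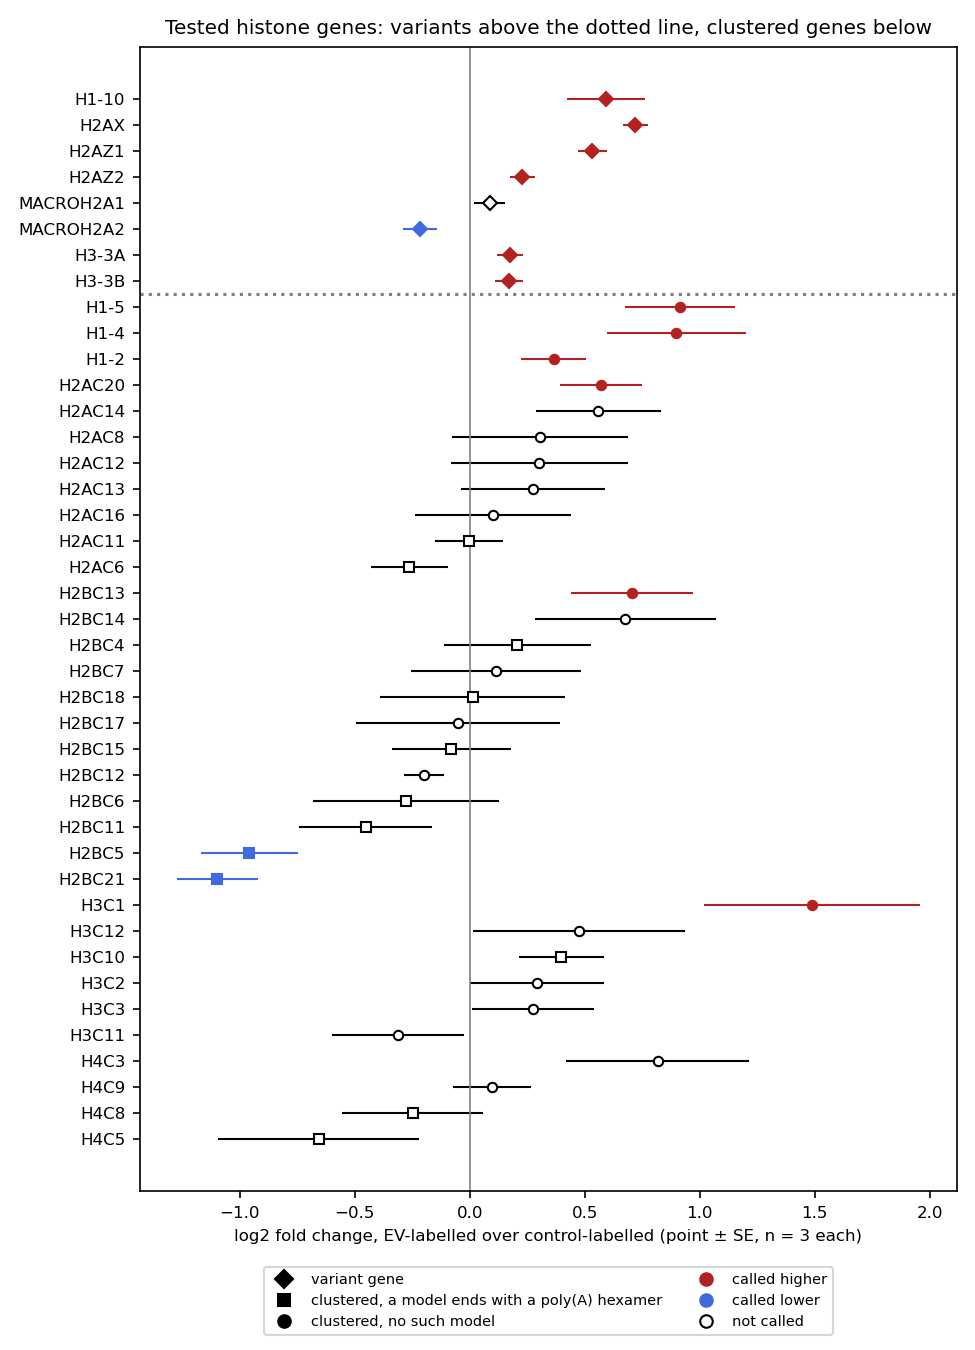
Log2 fold change, EV-labelled over control-labelled, with SE (x axis) for 8 of the 9 variant genes above the dotted line and the 33 tested clustered genes below it, by family; filled red and blue symbols mark genes called higher and lower, squares mark clustered genes with an annotated model that ends in a poly(A) hexamer. The 2 genes called lower in the clusters, H2BC5 and H2BC21, are squares, and the 6 called higher are circles. Of the 21 tested genes drawn as circles, 14 have models of coding sequence alone, 4 of them called higher. Such models show nothing of the mRNA end. Over all tested genes 20.7% were called lower and 20.2% higher, and the split by symbol was not tested. Error bars are wider for the clustered genes (median SE 0.29) than for the variants (0.06).

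The linker genes of the cluster, H1-1 to H1-5, encode the H1 subtypes made in S phase. All 3 that passed the filter were called higher, where 20.2% of all tested genes were. H1-1 and H1-3, with at most 11 counts, were not tested. H1-5 was at 2.07, 1.88 and 1.57 CPM in EV-labelled libraries and at 1.03, 0.804 and 1.10 CPM in control-labelled libraries, a clear gap (log2 fold change 0.91 ± 0.24, adjusted p = 0.00496). H1-4 was at 1.26, 1.56 and 1.00 CPM in EV-labelled libraries and at 0.471, 0.622 and 0.916 CPM in control-labelled libraries, where the nearest values almost touch (0.90 ± 0.30, adjusted p = 0.0228). H1-2, which had the most counts of them, was at 5.14, 6.42 and 6.11 CPM in EV-labelled libraries and at 4.11, 4.35 and 5.17 CPM in control-labelled libraries, which overlapped (0.37 ± 0.14, adjusted p = 0.0459). The H1-5 call held without each library in turn and with DESeq2 (adjusted p = 0.0138). DESeq2 called neither H1-4 nor H1-2 (adjusted p 0.0535 and 0.0801). H1-4 lost its call without EV replicate 1, EV replicate 2, control replicate 1 or control replicate 2 (adjusted p 0.0543, 0.109, 0.0968 and 0.0686), and H1-2 lost it without EV replicate 2, EV replicate 3, control replicate 1 or control replicate 2 (0.152, 0.114, 0.134 and 0.114).

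The H2B genes held the largest clustered counts and both genes called lower. H2BC12 alone took 22.8% to 24.6% of the clustered counts in EV-labelled and 26.2% to 28.9% in control-labelled libraries. It was at 15.1, 14.6 and 15.2 CPM in EV-labelled libraries and at 17.7, 16.6 and 17.3 CPM in control-labelled libraries. Every EV-labelled library was below every control-labelled one, but the gene was not called (log2 fold change -0.20 ± 0.09, 95% interval -0.37 to -0.03 before adjustment, adjusted p = 0.0746).

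H2BC21, in the cluster on chromosome 1, had the lowest adjusted p of any clustered gene. It was at 1.89, 1.47 and 2.05 CPM in EV-labelled libraries (51, 32 and 51 counts) and at 4.11, 3.66 and 3.89 CPM in control-labelled libraries (96, 100 and 106 counts). The groups were well apart, and the log2 fold change was -1.10 ± 0.18 (adjusted p = 6.51e-05), or 2.14-fold lower. H2BC5 was at 1.18, 1.56 and 1.61 CPM in EV-labelled libraries and at 3.08, 2.19 and 3.15 CPM in control-labelled libraries, also without overlap (-0.96 ± 0.21, adjusted p = 0.00133). Both calls held without each library in turn. An antisense gene overlaps H2BC5.

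H2BC13 ran the other way, at 1.37, 1.15 and 1.25 CPM in EV-labelled libraries and at 0.771, 0.695 and 0.843 CPM in control-labelled libraries, without overlap (log2 fold change 0.71 ± 0.26, adjusted p = 0.0383). Its call was lost without any 1 of the 6 libraries: the adjusted p was 0.116, 0.0598 and 0.0838 without EV replicates 1, 2 and 3, and 0.081, 0.117 and 0.0603 without control replicates 1, 2 and 3. The other 8 tested H2B genes were not called and overlapped between the groups, with log2 fold changes from -0.45 ± 0.29 for H2BC11 to 0.68 ± 0.39 for H2BC14. H2BC3 and H2BC8 stayed at or below 9 counts. Annotated genes overlap H2BC6, H2BC15 and H2BC18, as well as H2AC16 and H3C12, so their counts are uncertain.

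Among H2A genes, 8 of 13 were tested and 1 was called, where 40.9% of all tested genes were. H2AC20 was at 3.77, 4.12 and 4.38 CPM in EV-labelled libraries and at 3.60, 2.30 and 2.42 CPM in control-labelled libraries (log2 fold change 0.57 ± 0.18, adjusted p = 0.0144). The groups did not overlap, though control replicate 1 came close to them. The adjusted p was 0.0551 without EV replicate 3, 0.0717 without control replicate 2 and 0.0599 without control replicate 3. H2AC11 was at 3.78 ± 0.382 CPM in EV-labelled and 3.80 ± 0.081 CPM in control-labelled libraries (0.00 ± 0.15, 95% interval -0.29 to 0.29), which excludes a fold of the size seen for H2BC21. H2AC14 (0.56 ± 0.27, EV-labelled above) and H2AC6 (-0.26 ± 0.17, EV-labelled below) did not overlap but were not called (adjusted p 0.106 and 0.227). The 5 untested H2A genes had at most 11 counts in a library. H2AC18 and H2AC19 are near-identical copies, and their 0 to 3 counts cannot be assigned to either with certainty.

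**Figure D4:**
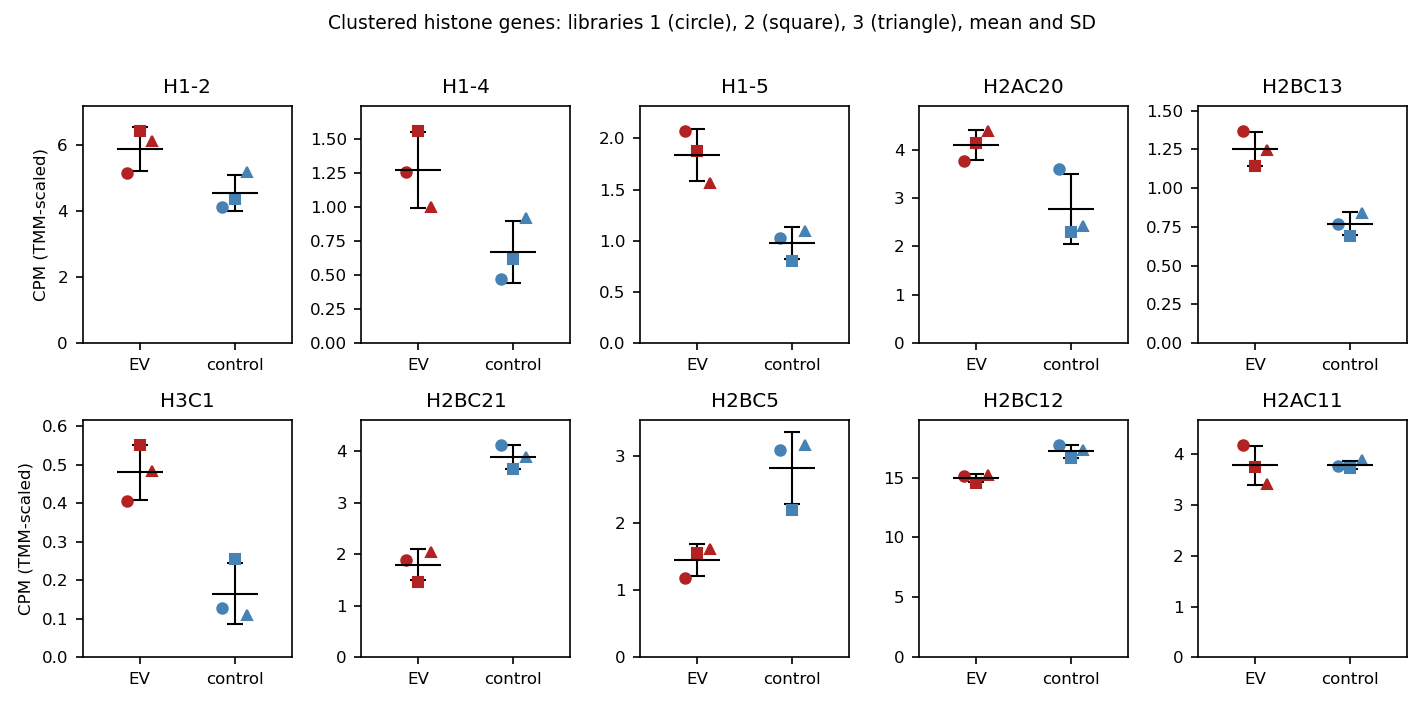
CPM (y axis, from 0) of the 8 clustered genes that were called and of the uncalled genes H2BC12 and H2AC11, in 3 EV-labelled (left) and 3 control-labelled (right) libraries, with group mean and SD. H2BC21 and H2BC5 lie lower in EV-labelled libraries, at 1.47 to 2.05 and 1.18 to 1.61 CPM, and H1-5 lies higher, at 1.57 to 2.07 CPM.

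H2AC20 and H2BC21 are neighbours that are read away from each other, with RefSeq starts 236 bases apart. Their changes had opposite signs. The count ratio of H2AC20 to H2BC21 was 2.00, 2.81 and 2.14 in EV-labelled and 0.875, 0.63 and 0.623 in control-labelled libraries, so H2AC20 had more counts than its neighbour in every EV-labelled library and fewer in every control-labelled one. The ratio was chosen after the values were seen and was given no test. Of the 9 such divergent pairs found among the members, 5 had both genes tested, and in these 5 no other pair had both genes called. The 235 bases between these starts (GRCh38.p14, chr1:149886683-149886917), written on the minus strand towards H2BC21, carry the letters of shared promoter motifs, marked in capitals on either strand. These are the CCAAT box, the TATA box (letters TATAAA) and the core of the octamer (letters TTTGCAT):
H2BC21 promoter: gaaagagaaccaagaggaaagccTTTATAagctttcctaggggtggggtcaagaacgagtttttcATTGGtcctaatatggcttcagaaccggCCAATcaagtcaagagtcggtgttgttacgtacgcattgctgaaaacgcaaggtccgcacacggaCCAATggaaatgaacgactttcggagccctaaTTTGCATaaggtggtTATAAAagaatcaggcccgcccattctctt
The 250 bases before the start of H2BC5 (GRCh38.p14, chr6:26157871-26158120, plus strand) are shown beside it, as the other gene called lower:
H2BC5 promoter: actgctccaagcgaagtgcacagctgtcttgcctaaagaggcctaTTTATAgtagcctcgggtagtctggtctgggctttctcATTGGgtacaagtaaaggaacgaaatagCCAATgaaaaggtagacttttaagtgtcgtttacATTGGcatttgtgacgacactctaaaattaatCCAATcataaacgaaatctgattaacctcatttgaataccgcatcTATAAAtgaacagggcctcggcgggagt

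Both stretches hold CCAAT and TATAAA, and TTTGCAT is in the first and not in the second. RefSeq promoter windows, from 250 bases before to 50 bases after a start, were found for 61 members. On either strand, CCAAT stood in 84.6% of 52 clustered windows, against 35.7% of all 27305 windows. By family, CCAAT stood in every H1, H2A, H2B and H3 window but in only 2 of 10 H4 windows. TATAAA stood in 71.2% of the clustered windows against 12.0% of all. TTTGCAT stood in 75.0% of 12 H2A and 80.0% of 15 H2B windows against 4.51% of all, and TTCCCGC stood in 8 of 10 H4 windows and in 0 other clustered windows, against 6.56% of all. Motifs were counted apart, whether or not their matches shared bases. A match describes letters in these windows and is neither a site nor a cause.

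Of the 12 H3 genes, 6 were tested and 1, H3C1, was called higher, where 20.2% of all tested genes were called higher. H3C1 had 11, 12 and 12 counts in EV-labelled libraries and 3, 7 and 3 counts in control-labelled libraries. It reached the filter through the EV-labelled libraries alone, so a difference was built into its being tested, and its log2 fold change of 1.49 ± 0.47 (adjusted p = 0.016) rests on few reads. The adjusted p was 0.0606 without EV replicate 2, 0.0523 without control replicate 1 and 0.0716 without control replicate 3. H3C10, the H3 gene with the most counts, was at 2.77, 3.44 and 2.53 CPM in EV-labelled libraries and at 2.44, 2.08 and 2.09 CPM in control-labelled libraries, without overlap and without a call (0.40 ± 0.18, adjusted p = 0.0887). H3C2, H3C3, H3C11 and H3C12 were not called, with log2 fold changes from -0.31 for H3C11, whose EV-labelled libraries all lay below, to 0.47 for H3C12. The 6 untested H3 genes had at most 14 counts, and the copies H3C14 and H3C15 had 0 and at most 1 count.

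None of the 4 tested H4 genes, of 12, was called, where 40.9% of all tested genes were. H4C9, the one with the most counts, was at 2.81 ± 0.272 CPM in EV-labelled and 2.64 ± 0.165 CPM in control-labelled libraries (log2 fold change 0.10 ± 0.17, 95% interval -0.23 to 0.43, adjusted p = 0.68). H4C3 (0.82 ± 0.40, adjusted p = 0.108), H4C8 (-0.25 ± 0.31, adjusted p = 0.546) and H4C5 (-0.66 ± 0.44, adjusted p = 0.245) overlapped between the groups. By edgeR, 0 of these 4 had an unadjusted p under 0.05, and DESeq2 and limma-voom called 0. The 8 untested H4 genes had at most 17 counts, and H4C14 and H4C15 are near-identical copies.

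The annotated end of a clustered gene's mRNA was set beside its call. A hexamer of the poly(A) signal (AATAAA or ATTAAA within the last 50 bases) was found in 21 of 68 protein-coding GENCODE v29 transcripts of clustered genes (30.9%) and in 10 of 31 of the variants (32.3%), against 44.2% of all protein-coding transcripts. With transcripts of any type counted, 21 clustered genes and all 9 variants had a model with one. Of these 21 genes, 12 were tested, and 0 were called higher and 2 lower. Of the 36 without such a model, 21 were tested, and 6 were called higher and 0 lower. Of these 36, 27 have protein-coding models of coding sequence alone, which show nothing of the mRNA end (14 tested, 4 higher and 0 lower). The other 9 have longer models without a hexamer (7 tested, 2 higher and 0 lower). Of all tested genes, 20.2% were called higher and 20.7% lower. At an unadjusted p under 0.05, edgeR had 1 higher gene with a model that ends in a hexamer and 1 lower gene without. With such a model, DESeq2 and limma-voom each called 0 higher and 2 lower. Without one, DESeq2 called 2 higher and 0 lower, and limma-voom called 5 higher and 0 lower. This split was not tested, and H3C1, among the 6 called higher, reached the filter through the EV-labelled libraries alone. Of the 6 called higher, H1-2, H1-5, H2AC20 and H3C1 have models of coding sequence alone, so the annotation shows nothing of how their mRNAs end.

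Of the 8 other members, H2AZ2P1 and H2AZP3, processed pseudogenes of the H2AZ genes, were tested. Neither was called by edgeR, DESeq2 or limma-voom, where edgeR called 40.9% of all tested genes. By edgeR 0 had an unadjusted p under 0.05 (log2 fold changes -0.01 ± 0.16 and -0.17 ± 0.42, adjusted p 0.977 and 0.777). H2AZ2P1 lies within FAM174B on the same strand and H2AZP3 over UBAC2 on the opposite strand, and reads may also be shared with the parent genes, so the source of their counts is uncertain. H2AZ2P1, at 3.80 ± 0.285 CPM in EV-labelled and 3.84 ± 0.677 CPM in control-labelled libraries, overlapped. H2AZ1-DT had 6, 5 and 5 counts in EV-labelled and 3, 3 and 3 counts in control-labelled libraries, and H2AZP1 and H2AZP2 had at most 2 counts. H2AZP4, H2AZP5 and H2AZP6 had 0 counts.

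Histone variants that the naming rule leaves out were followed as a list of 13 genes, of which 6 were tested, 0 called higher and 2 lower, where 20.2% and 20.7% of all tested genes were. By edgeR 2 higher genes had an unadjusted p under 0.05, and DESeq2 and limma-voom called 0 higher. H2AW, an H2A gene of a small separate cluster on chromosome 1, was at 19.3, 17.3 and 14.8 CPM in EV-labelled libraries and at 23.0, 27.6 and 28.4 CPM in control-labelled libraries (log2 fold change -0.62 ± 0.10, adjusted p = 8.83e-05). H4-16 encodes the same protein as the clustered H4 genes and was at 0.573 ± 0.249 CPM in EV-labelled and 1.18 ± 0.137 CPM in control-labelled libraries (-1.07 ± 0.33, adjusted p = 0.0127). CENPA, the centromeric H3, was at 56.6, 59.9 and 54.4 CPM in EV-labelled and 52.0, 52.8 and 48.6 CPM in control-labelled libraries, without overlap and without a call (0.16 ± 0.07, adjusted p = 0.0637).

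Genes that make and end clustered histone mRNA were more often called higher than lower. Like the other gene lists, this list was chosen with earlier results of these data known, so its counts are a description. Of 17 listed and tested, 9 were called higher and 2 lower, where 20.2% and 20.7% of all tested genes were, and their log2 fold changes had a median of 0.25. SLBP, which binds the stem-loop, was at 130, 134 and 124 CPM in EV-labelled libraries and at 87.1, 95.3 and 84.7 CPM in control-labelled libraries, well apart (0.54 ± 0.06, adjusted p = 1.72e-06). NPAT, the co-activator of the clusters, was at 29.8 ± 2.77 CPM in EV-labelled and 24.1 ± 3.32 CPM in control-labelled libraries (0.31 ± 0.10, adjusted p = 0.0153). Without EV replicate 3 NPAT had an adjusted p of 0.101, and without control replicate 2 one of 0.0956. CASP8AP2, a protein of the histone locus body, rose by 0.39 ± 0.08 (adjusted p = 0.000773), SRRT, which works with the cap-binding complex, by 0.33 ± 0.06 (adjusted p = 1.03e-04), and ERI1, an exonuclease that trims the stem-loop end, by 0.41 ± 0.07 (adjusted p = 1.23e-04). The list thus held more genes called higher than lower, and the clustered sum overlapped between the groups. Oligo(dT) beads take few of the clustered mRNAs that end in a stem-loop, so that sum cannot show whether they changed.

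Among chaperones that carry new histones, 13 were called higher and 0 lower of 21 tested, where 20.2% and 20.7% of all tested genes were, with a median log2 fold change of 0.20. In edgeR 1 lower gene had an unadjusted p under 0.05, and DESeq2 and limma-voom called 0 lower. ASF1B, which hands H3 and H4 to the assembly factor CAF-1, was at 129, 123 and 126 CPM in EV-labelled libraries and at 88.0, 81.2 and 78.6 CPM in control-labelled libraries (0.61 ± 0.06, adjusted p = 2.56e-07). CHAF1A, the large CAF-1 subunit, was at 92.4, 87.3 and 98.3 CPM in EV-labelled libraries and at 73.1, 62.6 and 62.2 CPM in control-labelled libraries (0.49 ± 0.07, adjusted p = 2.11e-05). NAP1L4 (0.30 ± 0.06) and HAT1, which acetylates new H4 (0.31 ± 0.06), were also higher. Without control replicate 2 the count called higher was 8. The count called lower was 1 with upper-quartile factors, with a filter of 1 CPM in 3 libraries, without control replicate 2 and without control replicate 3.

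Replication genes, which mark S phase, were nearly all called higher: 19 of 20 listed genes were called higher and 0 lower, where 20.2% and 20.7% of all tested genes were, with a median of 0.50, and 0 were lower at an unadjusted p under 0.05 or by DESeq2 or limma-voom. PCNA, the sliding clamp, was at 315, 320 and 300 CPM in EV-labelled libraries and at 196, 170 and 173 CPM in control-labelled libraries (0.80 ± 0.06, adjusted p = 1.42e-08). CDC6, a loader of the MCM helicase, had a log2 fold change of 0.86 ± 0.07 and GINS1, a helicase subunit, one of 0.98 ± 0.07. The exception, CDT1, was at 0.14 ± 0.07 (adjusted p = 0.107). The listed replication genes moved with H2AX, H2AZ1 and the H1 genes between the groups, and their part in the histone values was not tested. This list too was chosen with earlier results of these data known.

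Of 11 genes that place or remove H2A.Z, 2 were called higher and 3 lower, with a median of 0.02. These 5 of 11 are close to the 40.9% of all tested genes that were called. INO80, a remodeller linked to H2A.Z removal, was at 47.1 ± 1.28 CPM in EV-labelled and 60.8 ± 1.87 CPM in control-labelled libraries (-0.37 ± 0.06, adjusted p = 1.21e-04). VPS72, which binds H2A.Z in the depositing complexes, was also lower (-0.34 ± 0.07, adjusted p = 6.75e-04). ZNHIT1 and ACTL6A, subunits of such complexes, were higher (0.23 ± 0.06 and 0.20 ± 0.06).

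The authors' deposited table holds all 44 tested members. Of the 16 members called here, 15 also had a q-value under 0.05 there, with the same direction once its control-over-EV fold changes were turned. No tested member had such a q-value there alone. The authors' own state label was Up for H2BC21 and Down for H3C1, as control over EV. It was None for the other members called here, H2AX included.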

How the data were processed

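The authors deposited whole-number counts per gene (32453 features, 6 libraries) and, per the file headers, their own comparison with log2 values, p-values and q-values. TopHat, RSEM and hg19 appear in the submitters' processing notes, without versions or roles. The sources used here give neither the annotation nor any use of strand. Features with no gene name (375, or 0.099% to 0.134% of a library's counts) were left out, and 0 columns of the tables were unassigned.

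The fit used edgeR 4.0.16 (R 4.3.3) with glmQLFit and glmQLFTest, TMM factors, filterByExpr and a prior count of 0.125, on all 6 libraries and 14670 genes, with Benjamini-Hochberg adjustment and a threshold of 0.05. The SE is the log2 coefficient over the square root of F, and 95% intervals are the coefficient ± 1.96 SE. The test was also run on simulated data, and the outcome is not reported here. CPM values are means ± SD. Alternatives were 3 other scalings, 2 other count filters, DESeq2 1.42.0, limma-voom 3.58.1, a threshold of 0.01, a replicate block and each library left out.

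Members and gene lists were chosen with earlier results of these data known. Every member that passed the filter could be named; in each list up to 4 called genes with the lowest adjusted p (2 where none was called), and always SLBP, NPAT, CASP8AP2, ASF1B, CHAF1A and CENPA. Exceptions to a count, cell type markers and genes said to be picked out are outside this rule. Older symbols matched 2 members to GENCODE v29, used with RefSeq promoters (both GRCh38) for sequence and gene models alone. No pair of replicates agreed within sampling noise (chi-square per degree of freedom 4.59 to 8.86). Values of 1 variant gene are not reported here by name; the counts and sums include it.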

Additional observations from a re-analysis of the deposited data

How the results depend on the processing

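Across the 15 alternatives, H2AX, H2AZ1, H2AZ2, H1-5, H2BC21, H2BC5, SLBP, ASF1B, CHAF1A and CASP8AP2 kept direction and call. The 2 clustered genes called lower stayed at 2 in count throughout. The count of clustered genes called higher, 6, was 2 with DESeq2, 1 at an adjusted p under 0.01, and 2 to 4 without each library in turn. The count of variant genes called higher, 6, was 5 to 6 without each library and 4 to 6 under the other alternatives. With upper-quartile factors H3-3B had an adjusted p of 0.052. The count of variant genes called lower, 2, was 1 without a count filter, 0 at an adjusted p under 0.01, and 0 to 2 without each library. H2BC13 lost its call in 10 of 15 alternatives and H1-2 in 8. The replicate numbers did not pair the libraries (same-number correlations -0.052, -0.029 and -0.051). With the replicate block the clustered genes called were 5 higher and 2 lower, the variants 6 and 2, and H2BC13 had an adjusted p of 0.0579.

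Direction turned for 9 genes, none called under any alternative in which it turned (lowest adjusted p there 0.335), and the cause was not tested. H2AC11 had a log2 fold change of 0.003 with median-ratio factors, 0.0088 with library totals, 0.011 without a count filter and 0.0025 with DESeq2. H2BC18 had -0.0075 with upper-quartile factors and -0.0069 with the replicate block. H2AZ2P1 had 0.0045 with library totals, 0.0068 without a filter and 0.0115 with voom, and H2BC17 had 0.1565 with voom. Without each library in turn, H2AC11 ranged from -0.0761 to 0.0747, H2BC18 from -0.4721 to 0.4798, H2AZ2P1 from -0.14 to 0.1075, H2BC17 from -0.422 to 0.6025, H2AC16 from -0.1039 to 0.3259, H2AZP3 from -0.4999 to 0.0933, H2BC6 from -0.6787 to 0.1532, H2BC7 from -0.0901 to 0.3148 and H2BC4 from -0.0559 to 0.6729. Depth limits the clustered genes, whose libraries mostly held under 100 counts each.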
